A study of Mus musculus with 18 samples.

Results

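The genes described here are 7 parts of the LIF signalling route that holds mouse embryonic stem (ES) cells in the undifferentiated state. They are the cytokine gene Lif, the receptor genes Lifr and Il6st, the kinase gene Jak1, the transcription factor gene Stat3, and Socs3 and Pim1, which STAT3 is known to switch on. The members were picked by gene symbol from the 24116 genes of the deposited count table. They were all present, and all 7 were among the 14901 genes with enough counts to be tested. Where they lie and how their RNA differed was read across 18 RNA-seq libraries.

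The cells were ES cells of strain 129S6/SvEvTac, and LIF was added to the medium of every culture together with fetal calf serum. The 4 groups were wild type (8 libraries), a Snf2h knockout ("ko", 5 libraries), ko cells re-expressing wild-type Snf2h (wild-type add-back, 3 libraries), and ko cells re-expressing Snf2h with a mutated ATPase (mutant add-back, 2 libraries, numbered 1 and 3). Both add-back groups therefore also carry the Snf2h deletion. Snf2h is the product of Smarca5, an ATPase that slides nucleosomes as the motor of ISWI remodelling complexes. Wild-type and wild-type add-back cells grew on gelatin, whereas the ko and mutant add-back lines spent at least their first passages after thawing on mouse embryonic fibroblast feeders. Feeder history and the absence of active Snf2h thus go together in these groups and cannot be told apart by design. Whether a line is 1 clone is not given in the sources used here. The study set out to ask how ISWI and SWI/SNF remodellers affect transcription factor binding. The RNA comparisons address which transcripts depend on Snf2h and on its ATPase.

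Library totals fell into 3 ranges: 11 libraries at 15.3 to 19.0 M counts (wild type 6 to 8, ko 3 to 5 and all 5 add-back libraries), 4 at 22.9 to 25.3 M (wild type 1 and 2, ko 1 and 2) and 3 at 31.0 to 37.0 M (wild type 3 to 5). They are called the low, middle and high depth sets. Replicates of the same group in different sets (27 pairs) had chi-square values of 31.0 to 68.5 per gene, against 1.46 to 13.4 for 12 pairs within the low or middle set. Of the latter, wild-type and ko pairs gave 1.46 to 2.53, and add-back pairs 2.04 to 13.4. The 3 pairs within the high set gave 15.9 to 40.9. Values are therefore given by set wherever this matters. Values are CPM, counts divided by the TMM-scaled library size in M. Smarca5 stood at 185 ± 29.1 CPM in wild type (SD, n = 8), 9.36 ± 0.59 in ko (n = 5), 86.0 ± 3.63 in the wild-type add-back (n = 3) and 58.5 ± 14.3 in the mutant add-back (n = 2). Ko thus held the least and wild type the most, in keeping with the labels. The ES cell genes Pou5f1, Sox2 and Nanog were abundant in every library, at no less than 1076, 339.5 and 446 CPM. The protocols speak of biological replicates without tying libraries to cultures, so p-values measure the spread between these libraries, part of which may be technical. Within the low and middle sets, where replicates of wild type and ko lay close, p-values may leave out spread between cultures.

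As background, LIF binds the LIF receptor chain, which then pairs with gp130, the signal-transducing chain encoded by Il6st and shared by the whole interleukin-6 family. JAK1 bound to these chains phosphorylates them and STAT3, which enters the nucleus and binds DNA. Socs3, a direct STAT3 target, encodes an inhibitor that blocks JAK kinases on gp130 and so closes a negative feedback loop. Pim1, another STAT3 target, encodes a serine/threonine kinase that favours survival and self-renewal. Mouse ES cells grown in serum need this route to stay pluripotent.

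Positions are RefSeq gene spans on GRCm38.p6. Lif lies at chr11:4257568-4272514, Stat3 at chr11:100886806-100939594 and Socs3 at chr11:117966079-117970336. Lifr is at chr15:7090610-7197489, Il6st at chr13:112464070-112506860, Jak1 at chr4:101151974-101265282 and Pim1 at chr17:29490785-29496111. Counts cover whole genes, so isoforms were not separated. The span of Jak1 overlaps Raver2. The library kit keeps strand, but the strand setting of the counting is not given in the sources used here. Raver2 stood at 24.4 CPM in wild type and 21.3 in ko, far below Jak1, and was not called between them (log2 change -0.20 ± 0.22, adjusted p = 0.47, edgeR).

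Both Socs3 and Pim1 are STAT3 targets, and within each depth set that holds both genotypes ko cells had more Socs3 and less Pim1 than wild type, as given further on. The sequence 5′ of a transcription start is therefore printed for each. RefSeq promoters (GRCm38.p6) ran from 250 bases before to 50 after a start. They were searched for TTCNNNGAA, the core pattern of STAT binding, which reads the same on both strands, and for its narrower form TTCCNGGAA, every match of which is also a match of the first. The 250 bases before the start are shown in lower case, with any match to TTCNNNGAA in capitals. The table lists 1 start for Socs3, which lies inside the gene span given above, and 2 for Pim1, of which the first is used. Socs3 is on the minus strand at chr11:117969367-117969616, and Pim1 on the plus strand at chr17:29490535-29490784.
Socs3: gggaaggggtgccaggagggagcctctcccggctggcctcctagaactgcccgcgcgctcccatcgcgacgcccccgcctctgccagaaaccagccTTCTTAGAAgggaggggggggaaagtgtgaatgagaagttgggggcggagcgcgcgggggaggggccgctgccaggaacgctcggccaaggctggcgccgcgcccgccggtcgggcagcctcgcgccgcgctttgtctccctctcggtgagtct
Pim1: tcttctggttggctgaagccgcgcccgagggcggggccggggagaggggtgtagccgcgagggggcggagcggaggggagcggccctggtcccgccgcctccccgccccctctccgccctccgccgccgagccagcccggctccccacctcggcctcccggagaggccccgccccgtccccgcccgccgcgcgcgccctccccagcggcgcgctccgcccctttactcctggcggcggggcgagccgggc

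The Socs3 promoter held 1 match, TTCTTAGAA, whose first base lies at position -154 from the start. It held 0 matches to TTCCNGGAA. Of all 32851 promoters of this length in the RefSeq table, 2726 (8.30%) held TTCNNNGAA and 377 (1.15%) held TTCCNGGAA. Neither promoter listed for Pim1 held a match, and none was found at the starts of the other 5 genes. A match here is a description of letters. Binding was not measured in these libraries.

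Per length of exon, the route was unevenly expressed in wild type. Pim1 and Socs3 were the most abundant, at 71.1 and 65.7 CPM per kb, and Stat3 followed at 35.7. Jak1 stood at 17.0, Il6st at 15.5 and Lifr at 8.93 CPM per kb. Lif itself was the lowest, at 1.17 CPM per kb, in cultures whose medium supplied the cytokine. Pim1 and Socs3 overlapped in their libraries. In ko cells Socs3 came first at 78.8 CPM per kb and Pim1 second at 40.4, while the other 5 kept their places.

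**Figure D1:**
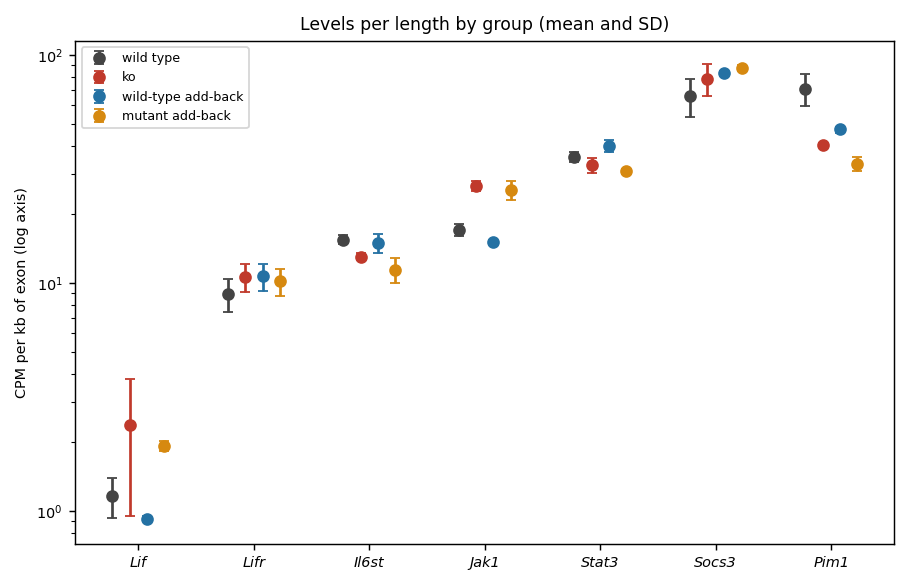
Mean CPM per kb of exon (log axis) for each of the 7 genes in wild type, ko, wild-type add-back and mutant add-back, with SD over 8, 5, 3 and 2 libraries. Lif is lowest in every group, and Pim1 and Socs3 exchange first place between wild type and ko.

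Of the 7 genes, 4 were called between ko and wild type: Lif and Jak1 were higher, and Il6st and Pim1 lower. Calls were common in this comparison, covering 55.0% of all tested genes (26.8% higher, 28.2% lower), so 4 of 7 is near the background. Returning wild-type Snf2h gave 4 calls against ko, with Lif and Jak1 lower and Il6st and Stat3 higher, where 45.0% of all genes were called (22.5% higher, 22.4% lower). The mutant add-back gave 0 calls against ko in edgeR, where 0.322% of genes were called. At an unadjusted p under 0.05 it gave 1, and DESeq2 gave 0 calls with 2 unadjusted. Between the add-backs, Il6st, Stat3 and Pim1 were higher and Jak1 lower with wild-type Snf2h, against a background of 37.0% (18.6% higher, 18.4% lower). The comparisons against ko share the ko libraries, and those against wild type share the wild-type libraries, so their values are set side by side and not correlated.

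Comparing libraries of like depth gave more calls for the members and for the background alike. In the low set 5 of the 7 genes were called between ko and wild type (60.1% of all genes), and in the middle set 6 (61.8%). The ko effect itself differed between the sets for 2 of the 7 (26.7%). Within the low set, wild-type Snf2h gave 5 calls against ko (58.6%) and 5 against the mutant (60.6%). There the mutant form gave 2 calls against ko (14.6%) and 6 against wild type (60.3%), and wild-type Snf2h 2 against wild type (22.5%). Libraries of 1 genotype also differed between sets. Wild type gave 2 member calls for the middle against the low set (43.5%) and 4 for the high against the low set (53.9%), and ko gave 4 for the middle against the low set (43.8%).

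**Figure D2:**
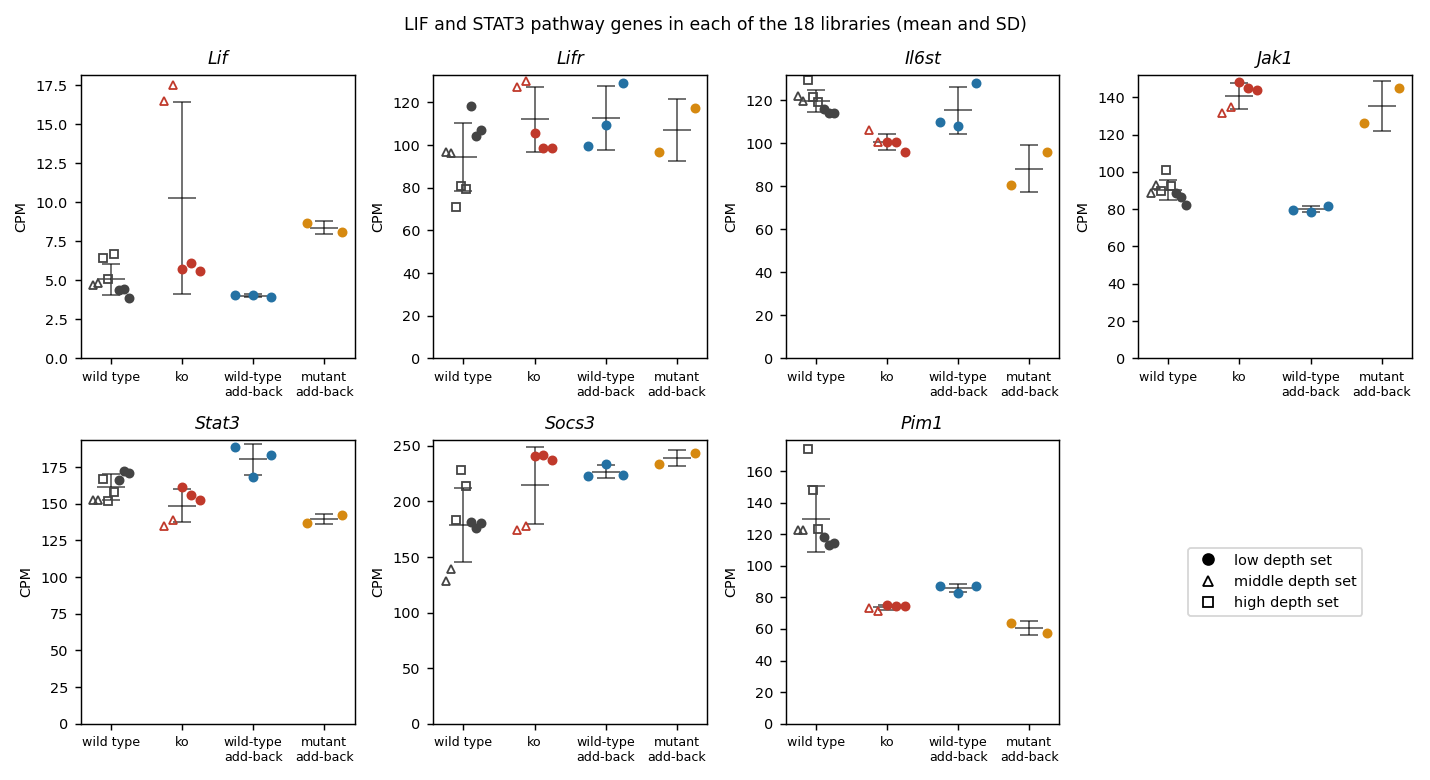
CPM of each gene in each of the 18 libraries by group, with mean and SD; filled circles, open triangles and open squares mark the low, middle and high depth sets. Il6st, Jak1 and Pim1 separate ko from wild type completely, whereas the 5 ko libraries split in Lif by depth set, at 5.58 to 6.14 and 16.5 to 17.5 CPM. The share of all genes that separate these groups was not counted, and 55.0% were called between them.

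Lif, the ligand, was weakly expressed and its level in ko depended on the set of libraries. Wild-type libraries ranged from 3.87 to 6.71 CPM with a median of 4.77, from at least 58 counts in any library. Ko replicates 1 and 2 read 16.5 and 17.5 CPM, and replicates 3 to 5 read 5.70, 6.14 and 5.58. The wild-type add-back read 4.09, 4.06 and 3.91 CPM, and the mutant add-back 8.67 and 8.08. Thus 2 ko libraries stood far above the rest and 3 lay within the wild-type range. All wild-type add-back libraries lay below every ko library, and both mutant add-back libraries lay between the ko clusters and above all wild-type libraries.

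Over all libraries Lif was 2.04-fold higher in ko (log2 change 1.03 ± 0.25 SE, adjusted p = 0.0023, edgeR). Within the low set the difference was 0.46 ± 0.13 (adjusted p = 0.0047), and within the middle set 1.83 ± 0.13 (adjusted p = 2.8e-10). The ko effect thus differed by 1.38 ± 0.19 between the sets (adjusted p = 1.1e-05). Within the low set, where wild type averaged 4.23 and ko 5.81 CPM, the groups did not overlap. The pooled fold change is a mixture of these values.

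The wild-type add-back had less Lif than ko (-1.37 ± 0.36, adjusted p = 0.0047), also among libraries of the low set (-0.53 ± 0.13, adjusted p = 0.0018). Against wild type its Lif was not called (-0.34 ± 0.33, 95% interval -1.03 to 0.35, adjusted p = 0.66). For the mutant add-back the direction against ko depended on which ko libraries entered. It was -0.31 ± 0.38 over all libraries (adjusted p = 0.71) and 0.53 ± 0.13 within the low set (adjusted p = 0.011). Against wild type the mutant add-back differed by 0.72 ± 0.35 over all libraries (adjusted p = 0.10, not called) and by 0.98 ± 0.14 within the low set (adjusted p = 3.7e-06). Between the add-backs, wild-type minus mutant, Lif differed by -1.06 ± 0.43 without overlap of the libraries (adjusted p = 0.058, not called, edgeR). It stayed uncalled under 19 of 26 alternatives. In the fit by depth set the value was -1.06 ± 0.14 (adjusted p = 1.8e-06), and all add-back libraries are in the low set.

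Among the ko libraries, markers of extraembryonic endoderm were high where Lif was high. Their summed level (12 genes, including Gata4, Gata6 and Sox17, all 12 tested and none at 0 throughout a group) was 13011 to 14129 CPM in ko replicates 1 and 2 but 3669 to 3780 in ko replicates 3 to 5. It was 2107 to 4889 in wild type, 3710 to 4075 in the wild-type add-back and 6067 to 6252 in the mutant add-back. Lama1 and Col4a1 weighed far more in the sum than Gata4, reaching 3275, 3190 and 197 CPM in ko. Between ko and wild type 12 of 12 markers rose in the middle set (61.8% of all genes called in either direction), whereas in the low set 0 rose and 10 fell (60.1%). In the low set Lif was higher in ko than in wild type, and this sum was lower in ko. Among wild-type libraries, Lif was higher in the high than in the low set by 0.52 (adjusted p = 0.0013, edgeR). There 12 of 12 markers fell, with a median log2 change of -1.05 (53.9% of all genes called). In the mutant add-back against ko, within the low set, 11 of 12 markers rose (14.6% of all genes called), and Lif was higher by 0.53. Between the add-backs in that set 11 markers were lower with wild-type Snf2h (60.6% of all genes called), and Lif differed by -1.06. The part of these cells in the Lif values was not tested. In bulk RNA, more cells of a type and more RNA per cell cannot be told apart.

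Lifr, the ligand-binding receptor chain, showed no difference that held in every set. It ranged from 70.8 to 118.3 CPM in wild type (median 96.6) and read 127.1, 130.1, 105.8, 98.6 and 98.8 in ko. Libraries of the wild-type add-back read 99.5, 109.3 and 129.1, and the mutant add-back 96.9 and 117.2. Among ko libraries, replicates 1 and 2 exceeded every wild-type library, and all 4 groups overlapped.

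Ko differed from wild type in Lifr by 0.25 ± 0.12 (95% interval 0.01 to 0.50, adjusted p = 0.074), which did not pass the threshold. The middle set gave a rise of 0.41 ± 0.10 (adjusted p = 0.0015) and the low set -0.12 ± 0.09 (adjusted p = 0.23). The difference between them was 0.53 ± 0.13 (adjusted p = 0.0049). Lif and Lifr were the 2 members whose ko effect differed between sets. Wild-type libraries alone differed as well: Lifr was lower in the high than in the low set by 0.51 on the log2 scale (log2 change -0.51, adjusted p = 4.2e-05). Neither add-back differed from ko in Lifr by an amount that passed (wild-type add-back 0.01 ± 0.15, interval -0.31 to 0.32; mutant add-back -0.07 ± 0.17, interval -0.43 to 0.29). The same endoderm markers were high in the 2 ko libraries with most Lifr, and their part was not tested.

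Il6st, the gene of gp130, fell slightly in ko. Its wild-type libraries ranged from 114.0 to 129.4 CPM (median 119.3), and the ko libraries read 106.2, 100.7, 100.5, 100.5 and 96.0. Every ko library thus lay below every wild-type library. The wild-type add-back read 110.0, 108.2 and 127.9 CPM, all above ko, and the mutant add-back 80.6 and 95.9, both below it.

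Il6st changed by -0.25 ± 0.06 in ko (adjusted p = 0.0018), to 84.3% of wild type, with -0.21 in the low set (adjusted p = 0.011) and -0.22 in the middle set (adjusted p = 0.024). With wild-type Snf2h it was higher than in ko by 0.20 ± 0.08 (adjusted p = 0.042), and higher than with the mutant by 0.39 ± 0.10 (adjusted p = 0.0040). The call against ko was lost under 10 of 26 alternatives, among them without wild-type add-back replicate 3, the highest of the group (0.11, adjusted p = 0.28). It held in the low set (0.22, adjusted p = 0.0094). The call between the add-backs was lost without mutant add-back replicate 1 (0.28, adjusted p = 0.089). Compared with wild-type cells, the wild-type add-back differed by -0.05 ± 0.07 (interval -0.20 to 0.10), and the mutant add-back by -0.44 ± 0.08 (adjusted p = 0.00039).

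Jak1, the kinase, separated ko and the mutant add-back from wild type and the wild-type add-back. Wild-type libraries ranged from 82.4 to 101.2 CPM (median 89.4). The ko libraries read 131.5, 134.6, 148.0, 144.9 and 144.1, and the mutant add-back 126.1 and 144.8. Libraries of the wild-type add-back read 79.5, 78.5 and 81.7. All 7 libraries of ko and the mutant add-back lay above all 11 of wild type and the wild-type add-back.

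Jak1 was 1.56-fold higher in ko than in wild type (0.64 ± 0.06, adjusted p = 3.5e-08), by 0.76 in the low set (adjusted p = 1.3e-09) and 0.55 in the middle set (adjusted p = 1.6e-06). The difference between the sets did not pass (-0.21 ± 0.09, adjusted p = 0.10). With wild-type Snf2h it was lower than in ko by 0.82 on the log2 scale (log2 change -0.82 ± 0.08, adjusted p = 1.5e-07). The mutant add-back differed from ko by -0.05 ± 0.09 (interval -0.23 to 0.12) and from the wild-type add-back by 0.76 in the other direction (wild-type minus mutant -0.76 ± 0.09, adjusted p = 5.8e-06). Compared with wild-type cells the wild-type add-back had slightly less, without overlap of the libraries, but the difference was not called (-0.18 ± 0.07, interval -0.32 to -0.03, adjusted p = 0.23). The mutant add-back exceeded wild-type cells by 0.58 ± 0.08 (adjusted p = 9.5e-06, edgeR).

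Feeder fibroblast markers were high in the same groups as Jak1. The summed level of the 24 listed markers was 100.8 to 167.4 CPM in wild type and 110.8 to 114.7 in the wild-type add-back. It was 294.7 to 344.0 in ko and 330.5 to 405.6 in the mutant add-back. Of 21 tested markers 16 rose and 3 fell in ko against wild type (26.8% and 28.2% of all genes). In the low set 17 rose and 0 fell (60.1% of all genes called in either direction). In the middle set 17 rose and 3 fell (61.8%). From ko to the wild-type add-back 16 fell and 0 rose (22.4% and 22.5% of all genes). From wild type to ko the mean of Thbs1 went from 17.3 to 87.6 CPM, that of Fbln2 from 2.57 to 28.5, that of Bgn from 2.94 to 21.9 and that of Lox from 0.31 to 5.84. Other listed markers were lower in ko over all libraries, though none was called lower in the low set. The mean of Mmp2 went from 13.4 to 8.94 CPM, that of Pdgfrb from 5.82 to 3.15 and that of Col6a2 from 1.86 to 0.96. Col1a1 stood at 2.30 to 6.90 CPM in wild type and 10.8 to 19.8 in ko, and Col3a1 at no more than 0.31 and at 0.76 to 1.47. Lum was at 0 in all ko and mutant add-back libraries, and Dcn at no more than 0.17 CPM in any library. The part of feeder RNA in the Jak1 difference was not tested.

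Stat3 differed little between groups. It ranged from 151.5 to 172.5 CPM in wild type (median 162.0) and read 134.9, 138.9, 161.6, 155.6 and 152.7 in ko. The wild-type add-back read 188.7, 168.3 and 183.6, and the mutant add-back 137.1 and 142.1. Ko overlapped wild type, every wild-type add-back library lay above every ko library, and the mutant add-back lay below all wild-type libraries.

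The ko value was -0.12 ± 0.06 against wild type (interval -0.24 to 0.01, adjusted p = 0.10), and neither set passed in the joint fit of all libraries. It was called when the low set (-0.12, adjusted p = 0.043) or the middle set (-0.13, adjusted p = 0.0048) was fitted alone, and with the depth set as a covariate (-0.13, adjusted p = 0.013). With wild-type Snf2h, Stat3 exceeded ko by 0.28 ± 0.08 (adjusted p = 0.0059) and the mutant add-back by 0.37 ± 0.10 (adjusted p = 0.0058). The mutant add-back was lower than wild type (-0.21 ± 0.08, adjusted p = 0.049). That call was lost under 12 of 26 alternatives, with adjusted p up to 0.22. Wild type itself differed between sets, by -0.16 in the middle against the low set (adjusted p = 0.047), as did ko, by -0.19 (adjusted p = 0.015).

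Socs3, the feedback inhibitor, was higher in ko than in wild type once libraries of like depth were compared. Wild-type replicates 1 and 2 read 128.7 and 139.0 CPM, replicates 3 to 5 read 183.7, 228.5 and 213.9, and replicates 6 to 8 read 181.8, 176.3 and 180.7. Ko replicates 1 and 2 read 174.3 and 178.4, and replicates 3 to 5 read 240.7, 241.6 and 237.7. Libraries of the wild-type add-back read 222.9, 233.4 and 223.8, and the mutant add-back 233.7 and 243.9. Ko and wild type overlapped over all libraries, but within the low set and within the middle set every ko library lay above every wild-type library.

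Over all libraries the Socs3 difference was 0.26 ± 0.12 (interval 0.01 to 0.51, adjusted p = 0.077) and was not called. It was 0.42 ± 0.06 in the low set (adjusted p = 1.2e-05) and 0.40 ± 0.08 in the middle set (adjusted p = 0.00019), with -0.02 between them (adjusted p = 0.90). The sets differed in Socs3 by a similar amount within a genotype, -0.42 ± 0.07 in wild type and -0.44 in ko for the middle against the low set (adjusted p = 0.00011 and 5.4e-05).

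With either form of Snf2h, Socs3 was not called against ko. The wild-type add-back differed from ko by 0.08 ± 0.16 (interval -0.25 to 0.41) and, in the low set, by -0.08 (adjusted p = 0.28). In the low set it exceeded wild type by 0.34 ± 0.06 (adjusted p = 0.00074). Over all libraries that difference was the same size but not called (0.34 ± 0.14, adjusted p = 0.26). The mutant add-back exceeded wild type by 0.42 ± 0.17 (adjusted p = 0.047), a call lost under 11 of 26 alternatives, and by 0.41 in the low set, where it was called. The add-backs differed from each other by -0.08 ± 0.20 (interval -0.49 to 0.33).

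Pim1, the target kinase, moved the opposite way. Wild-type libraries ranged from 113.0 to 174.0 CPM (median 122.7), and the 5 ko libraries read 73.0, 71.7, 74.9, 74.2 and 74.4. The wild-type add-back read 87.3, 82.7 and 87.2, and the mutant add-back 63.8 and 57.8. The 4 groups did not overlap: wild type was highest, then the wild-type add-back, ko and the mutant add-back.

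Pim1 fell to 56.8% of wild type in ko (-0.81 ± 0.09, adjusted p = 6.3e-07), by -0.63 ± 0.08 in the low set (adjusted p = 2.0e-06) and -0.76 ± 0.10 in the middle set (adjusted p = 1.6e-06). The wild-type add-back stood at 66.2% of wild type (-0.60 ± 0.11, adjusted p = 0.0085). Pim1 was the 1 member called in that comparison, where 1.60% of genes were called (1.17% lower). The call was lost when any 1 wild-type add-back library was left out (adjusted p = 0.057, 0.094 and 0.052 without replicates 1, 2 and 3), and it held in the low set (-0.43 ± 0.08, adjusted p = 0.00095).

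Against ko the wild-type add-back was higher in Pim1 by 0.22 ± 0.11 (interval -0.02 to 0.46, adjusted p = 0.13), which did not pass over all libraries and passed in the low set (0.20 ± 0.08, adjusted p = 0.046). The mutant add-back was lower than ko by -0.28 ± 0.13 (adjusted p = 0.33), and in the low set by -0.29 ± 0.10 (adjusted p = 0.045). Between the add-backs the difference was 0.50 ± 0.15 (adjusted p = 0.013). It was lost without mutant add-back replicate 3 (0.44, adjusted p = 0.087). Against wild type the mutant add-back was 2.13-fold lower (-1.09 ± 0.13, adjusted p = 4.0e-06). In that comparison 5 of the 7 genes were called, Jak1 and Socs3 higher and Il6st, Stat3 and Pim1 lower, against 45.5% of all genes (22.1% higher, 23.5% lower).

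**Figure D3:**
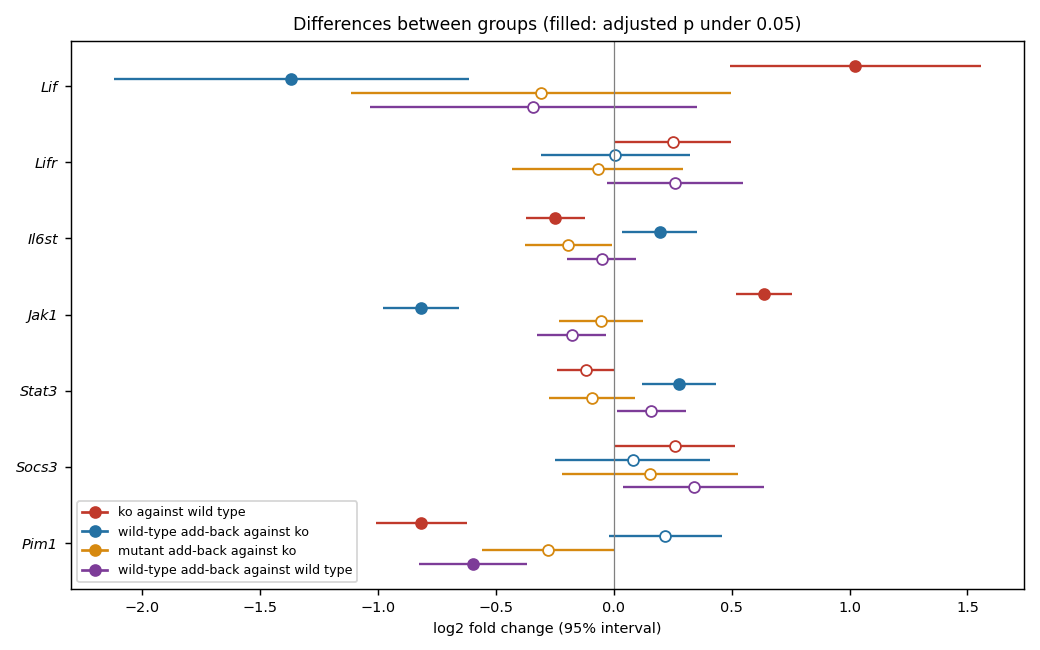
Log2 fold changes with 95% intervals for 4 comparisons, filled where the adjusted p is under 0.05. Jak1 and Lif change in opposite directions in ko and with wild-type Snf2h, the mutant add-back has no filled point, and Pim1 alone is filled where wild-type add-back cells are set against wild-type cells.

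**Figure D4:**
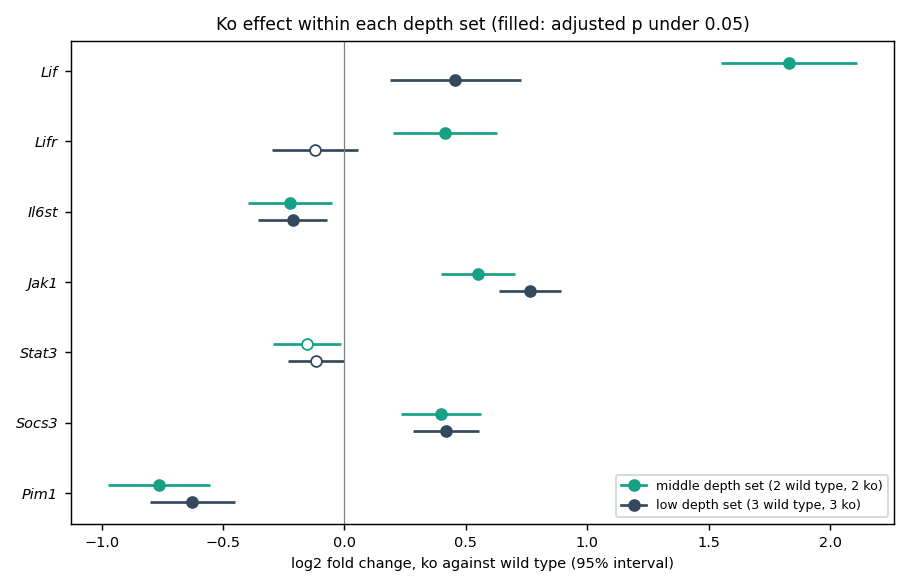
Log2 fold change of ko against wild type within the middle set (2 and 2 libraries) and the low set (3 and 3), with 95% intervals; filled points have an adjusted p under 0.05. Lif and Lifr differ between the sets, by 1.38 and 0.53, while Socs3 is filled in both at 0.42 and 0.40.

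The wider route was read from 6 lists of other genes. Of 49 tested genes, 20 rose and 11 fell in ko against wild type, where 26.8% of all genes rose and 28.2% fell, with a median log2 change of 0.18 (all genes -0.01). The median was 0.07 in the low set and 0.26 in the middle set. The ko log2 change was greater in the middle than in the low set for 7 genes and smaller for 4 (26.7% of all genes called). Against ko, the wild-type add-back had 9 higher and 17 lower, with a median of -0.19, where 22.5% of all genes were higher and 22.4% lower. The mutant add-back had 0 called against ko in edgeR (0.322% of all genes called), 3 at an unadjusted p under 0.05, and 1 in DESeq2 (Tfcp2l1).

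Among the ligands of the interleukin-6 family, 4 of 7 were tested, and 2 rose and 1 fell in ko, where 26.8% of all genes rose and 28.2% fell. Osm, encoding oncostatin M, which signals through gp130 as LIF does, went from 0.48 ± 0.21 CPM in wild type to 3.47 ± 0.64 in ko. It was 0.72 in the wild-type add-back and 2.54 in the mutant add-back. Its log2 change in ko was 2.86 ± 0.26 (adjusted p = 3.7e-08), and with wild-type Snf2h -2.26 ± 0.37 against ko (adjusted p = 7.0e-05). Clcf1, encoding a ligand of the CNTF receptor, rose by 1.23 ± 0.17 (adjusted p = 9.1e-06), and Ctf1, encoding cardiotrophin-1, fell by 0.52 (log2 change -0.52, adjusted p = 0.012). The Ctf1 fall was called in neither depth set (-0.39, adjusted p = 0.13 in the low set, and -0.57, adjusted p = 0.053 in the middle set). All 3 moved back with wild-type Snf2h, with calls of the reverse sign against ko.

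Receptor chains other than Lifr and Il6st rose in ko for 4 of 6 genes and fell for 0, with a median of 0.91, where 26.8% of all genes rose. The median was 0.60 in the low set and 1.49 in the middle set. The ko log2 change was greater in the middle than in the low set for 3 of the 6 and smaller for 0 (26.7% of all genes called). The pooled values thus mix the sets. Il6ra, the interleukin-6 binding chain, went from 1.41 CPM in wild type to 4.35 in ko (1.62 ± 0.20, adjusted p = 1.6e-06), 1.02 in the wild-type add-back and 3.89 in the mutant add-back. Osmr, the oncostatin M receptor chain, rose by 1.35 (adjusted p = 7.2e-05), Il27ra by 0.89 (adjusted p = 0.00019) and Cntfr by 0.93 (adjusted p = 0.0040). In the wild-type add-back 4 of the 6 were lower than in ko and 0 higher, where 22.4% of all genes were lower and 22.5% higher. Cntfr, the CNTF-binding chain, read 35.4 CPM in ko against 9.24 in that add-back (-1.93 ± 0.36, adjusted p = 0.00028). Between the add-backs 5 of 6 were lower with wild-type Snf2h, where 18.4% of all genes were lower. The feeder markers mostly went the same way in each of these comparisons: 16 of 21 rose and 3 fell in ko. With wild-type Snf2h 16 were lower than in ko and 17 lower than with the mutant. Their part in the receptor values was not tested.

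Of 9 other JAK and STAT genes, 6 rose and 1 fell in ko, with a median of 0.46, where 26.8% of all genes rose and 28.2% fell. The median was 0.81 in the low set and 0.44 in the middle set. The ko log2 change was greater in the middle than in the low set for 2 and smaller for 3 (26.7% of all genes called). Jak2, the kinase that can also work with gp130, went from 8.79 to 14.6 CPM (0.73 ± 0.10, adjusted p = 9.9e-06) and read 8.01 in the wild-type and 12.8 in the mutant add-back. Jak3 rose by 0.66 (adjusted p = 0.00014). Stat4 was the 1 that fell (log2 change -0.50, adjusted p = 0.00039). Against ko, 5 of the 9 were lower and 1 higher with wild-type Snf2h (22.4% and 22.5% of all genes). Here too the feeder markers went the same way as the majority, and their part was not tested.

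Inhibitors were split: 3 of 14 rose and 4 fell in ko, with a median of 0.00. The background in ko, for these and for the adaptors, was 26.8% higher and 28.2% lower. Ptpn6, a phosphatase that acts on JAK kinases, went from 31.0 CPM in wild type to 15.0 in ko (-1.05 ± 0.13, adjusted p = 1.3e-06), 27.8 in the wild-type add-back and 17.6 in the mutant add-back. Socs2 fell too (log2 change -0.67, adjusted p = 0.0011), whereas Socs5 rose by 0.64 (adjusted p = 8.7e-06). Of 5 gp130 adaptor genes 1 rose, Shc1 (0.50, adjusted p = 1.4e-05), and 2 fell, Gab1 (-0.22, adjusted p = 0.014) and Sos1 (-0.28, adjusted p = 0.018).

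The other STAT3 targets of ES cells went both ways: of 11 tested, 4 rose and 3 fell in ko (26.8% and 28.2% of all genes), with a median of 0.07. Klf4, a pluripotency transcription factor, went from 236 to 334 CPM (0.50 ± 0.09, adjusted p = 0.00020), and Pim3, a kinase related to Pim1, rose by 0.37 ± 0.06 (adjusted p = 0.00011). Pim2, the remaining kinase of that family, changed by -0.58 (adjusted p = 0.00010), and Mcl1, which protects cells from apoptosis, went from 546 to 403 CPM (-0.44 ± 0.06, adjusted p = 3.8e-06). Thus Pim1 and Pim2 fell while Pim3 rose. With wild-type Snf2h, 3 targets were higher and 3 lower than in ko (22.5% and 22.4% of all genes). Klf4 was lower (-0.64, adjusted p = 0.00041), and Mcl1 (0.47, adjusted p = 4.0e-05) and Pim2 (0.68, adjusted p = 0.00027) were higher. Pim3, like Socs3, was not (0.07, adjusted p = 0.52), and it exceeded wild type in that add-back by 0.43 (adjusted p = 0.0058). Of the 49 genes, Pim3 and Gab1 were the 2 called in that comparison, where 1.60% of all genes were called.

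**Figure D5:**
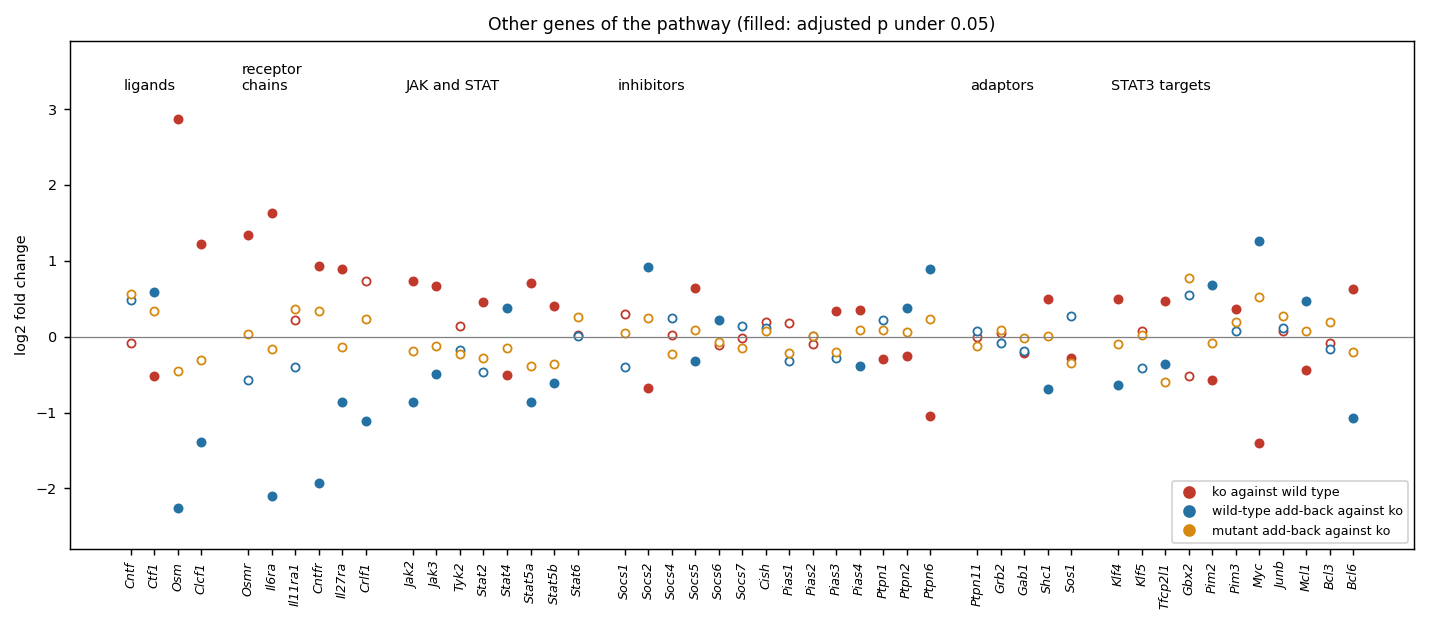
Log2 fold change of 48 other genes of the route, by list, for 3 comparisons: ko with wild type, and each add-back with ko; filled points have an adjusted p under 0.05. Receptor chains and JAK and STAT genes lie mostly above 0 in ko and below 0 with wild-type Snf2h, inhibitors and STAT3 targets lie on both sides, and no mutant add-back point is filled.

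The 7 genes did not share 1 pattern over the libraries. Likeness was measured as the root mean square difference of log2 CPM, centred on each gene, over the 18 libraries. The closest members were Il6st and Stat3, at 0.148, and the farthest Lif and Pim1, at 0.900. Among all tested genes, Cd55 (0.163) and Fam134b (0.209) were nearest to Lif, whose own SD was 0.64. Nearest to Jak1 were Top2b (0.0874) and Tmem50b (0.0917), and to Pim1 Camk1 (0.146) and Ptprk (0.157). Socs3 was most like Bcl6b (0.143) and Mavs (0.145), and Lifr most like Mmgt1 (0.118) and Asnsd1 (0.122). Il6st was closest to Med1 (0.0569) and Dclre1a (0.0592), and Stat3 to Sept9 (0.0632) and Zfp748 (0.0638). These genes were picked for likeness in libraries that share depth and composition, so the values describe and test nothing.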

How the data were processed

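RNA-seq of polyadenylated RNA was read from 18 libraries, made with a stranded TruSeq kit per the labels' protocols. The values are raw read counts, which the authors deposited as a table of 24116 genes, keyed by Entrez identifier, with 1 column per library. Exon length per gene, used for CPM per kb, is a further column of that table. Per the submitters' processing notes, bcl2fastq 2.17 and STAR were used with mm10 (GRCm38). For the STAR version, counting tool, annotation and strand setting, the sources used here give nothing. Of the genes, 9 had no symbol and 3581 no count in any library.

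All comparisons came from 1 fit of all libraries with 1 mean per group in edgeR 4.0.16 (R 4.3.3): TMM scaling, filterByExpr with a count minimum of 10 (14901 genes left), and the two-sided quasi-likelihood test with robust settings, with p-values adjusted by Benjamini and Hochberg's method over all tested genes. Genes with an adjusted p under 0.05 were called. Errors of log2 changes are standard errors, and intervals are 95%. Differences within and between depth sets came from a second fit of the same kind with 1 mean per group and set; sets were split by total counts at 20 and 28 M. The common biological coefficient of variation was 0.169. Rates from simulated counts (ko against wild type, 14901 genes) were 36.9%, 96.9% and 100% of genes recovered at log2 changes of 0.5, 1 and 2, with 3.82% of calls false. Only 65, 64 and 65 genes were changed at these sizes, every gene had the same dispersion, and depth sets did not differ. In the data 55.0% of genes were called and depth sets differed, so these rates do not carry over to the comparisons here.

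The 7 genes, the pathway and marker lists and the tests were chosen with earlier results of these data known. Every member was described. Values of 1 gene of the pathway lists are not reported here; the lists' counts include it. Of each pathway list, up to 4 called genes per comparison with the smallest adjusted p could be named, and the 2 most similar genes of each member. The alternatives were DESeq2 1.42.0 size factors or library size alone, no filter, the DESeq2 Wald test, the replicate number as a block, depth set as a covariate, the low or the middle set alone, and leaving out each library. A fit without the 3 high-depth wild-type libraries was added after seeing the data. Promoters and gene spans were RefSeq's (GRCm38.p6). No sample was left out of the main comparisons.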

Additional observations from a re-analysis of the deposited data

Results flagged for a closer look

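The effect of the knockout on Lif differed between libraries of different depth. The log2 change was 0.46 in the low set and 1.83 in the middle set, and the test of the difference gave 1.38 ± 0.19 (adjusted p = 1.1e-05, edgeR). The ko libraries of the middle set read 16.5 and 17.5 CPM, and those of the low set 5.70, 6.14 and 5.58.

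For Lifr the same test gave a difference of 0.53 ± 0.13 (adjusted p = 0.0049, edgeR), with -0.12 in the low set and 0.41 in the middle set. Of the ko libraries, the 2 of the middle set lay above every wild-type library. No single library of the wild-type or ko group stood apart in any of the 14 checks of member and group (Dixon's gap test). That test looks at 1 extreme library at a time, so it could not flag the 2 ko libraries with high Lif.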

How the results depend on the processing

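Each member was recomputed under 26 alternatives per comparison (27 between ko and wild type, and 2 for the difference of the ko effect between depth sets). Of these values, 1015 kept direction and side of the threshold, 35 newly passed, 39 no longer passed and 24 turned sign. Jak1, Pim1 and Il6st kept their call between ko and wild type under every alternative run, and Lif lost it under 1, the replicate block. With the middle set alone all 7 genes were called between ko and wild type, and calls over all genes rose from 8192 to 11083. Fits of fewer libraries reran the filter, so the number of genes tested can differ from 14901 and shares are not given. For the mutant add-back against ko the low set alone called 3 members (Lif, Pim1 and Stat3) against 0 over all libraries. Between wild-type add-back and wild-type cells, the depth covariate, the low set alone and the replicate block each called 2 members against 1, and leaving out 1 library gave 0 to 1. Between mutant add-back and wild-type cells leaving out 1 library gave 3 to 5 members against 5. Calls over all genes moved as well in these comparisons, as listed next, so the member counts are not read alone.

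Calls over all genes in the mutant add-back against ko numbered 48, and 480 with the depth covariate, 333 with the DESeq2 Wald test, 3685 in the low set alone, 134 without the high-depth wild-type libraries, and 4 to 143 leaving out 1 library. Between wild-type add-back and wild-type cells they numbered 238, and 1532 with the covariate, 486 with DESeq2, 4786 in the low set alone, 1002 with the block and 44 to 260 leaving out 1 library. Between the add-backs there were 5507, and 9744 in the low set alone and 3014 to 5657 leaving out 1 library. Mutant add-back against wild-type cells gave 6787, and 3675 to 6912 leaving out 1 library. The low set alone holds 11 libraries, and the causes of all these shifts were not tested.

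Except for Lif, the values that turned sign passed under neither setting. In the mutant add-back against ko, Lif became 0.23 with the covariate and 0.53 in the low set alone (adjusted p = 0.0023), Lifr 0.083 in the low set alone, and Socs3 -0.0029 and -0.0072. Leaving out 1 library gave -0.17 to 0.034 for Jak1 and -0.22 to 0.053 for Lifr. Against wild type, Il6st in the wild-type add-back became 0.0053 with the covariate and 0.0091 in the low set, Lif 0.25 with the covariate, and Lifr in the mutant add-back -0.039 in the low set. Against ko, Lifr in the wild-type add-back became -0.0027 with DESeq2 size factors, -0.0025 with its Wald test, -0.066 with library size alone and -0.067 with the block, and -0.10 to 0.088 leaving out 1 library. Socs3 there became -0.078 with the covariate and -0.080 in the low set. Between the add-backs Lifr ran from -0.044 to 0.23 leaving out 1 library. Lifr between ko and wild type was -0.12 in the low set alone.

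Whether replicate numbers pair the libraries could not be decided, since deviations were taken from group means over all depth sets. In the middle set the same-numbered pairs of wild type and ko gave correlations of 0.169 and 0.144, and the differently numbered ones 0.187 and 0.114. Over 17 same-numbered pairs the correlation of deviations from group means ran from -0.246 to 0.174, 4 were over 0.1, and 4 of 15 libraries deviated most like one of their own number. With the block, Lif between ko and wild type was 0.75 (adjusted p = 0.055), Lifr 0.40 (adjusted p = 0.0095) and Socs3 0.28 (adjusted p = 0.022), Il6st in the wild-type add-back against ko 0.17 (adjusted p = 0.094), and Socs3 in that add-back against wild type 0.55 (adjusted p = 0.017, all edgeR).

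As to depth, Lif was the member with the fewest counts and rested on 58 to 453 counts per library. The mutant add-back had 2 libraries.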

Other observations

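Wild-type libraries differed among themselves in 4 of the 7 genes between the high and the low depth set, with no difference in genotype, where 53.9% of all tested genes were called. Lif was higher in the high set by 0.52 (adjusted p = 0.0013), Pim1 by 0.37 (adjusted p = 0.00078) and Socs3 by 0.22 (adjusted p = 0.0072), and Lifr differed by -0.51 (adjusted p = 4.2e-05, all edgeR). Between the middle and the low set, where 43.5% of genes were called, Socs3 and Stat3 differed. Il6st and Jak1 were called in neither of these comparisons within wild type.

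Within ko, 4 of the 7 genes were called between the middle and the low set: Lif by 1.55 ± 0.12 (adjusted p = 3.2e-09) and Lifr by 0.35 (adjusted p = 0.0049) were higher in the middle set, and Socs3 and Stat3 lower. The background was 43.8%.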
